A study of Mus musculus with 38 samples.

Results

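The Toll-like receptor family was examined in 4 populations of lung macrophages through 10 genes, Tlr1, Tlr2, Tlr3, Tlr4, Tlr6, Tlr7, Tlr8, Tlr9, Tlr12 and Tlr13, taken by symbol from the 43346 genes of the deposited count table. The remaining mouse receptors in the table, Tlr5 and Tlr11, are described after them. Macrophages came from naive C57Bl/6 mice of 8 to 10 weeks, with no genetic change or treatment in any group. Alveolar macrophages (AM), which line the air spaces, were sorted as CD11c+ Siglec F+ cells that lacked CD103, CD11b and Gr1 and the lymphocyte markers NK1.1, CD3 and B220. Interstitial macrophages (IM), which lie in the lung tissue, were enriched on MerTK and sorted as CD64+ CD11b+ cells that lacked CD24, CD43, Siglec F and Ly6G as well as NK1.1, CD3 and B220. Surface MHCII and CD206 then split them into 3 populations, of which IM1 was CD206 high and MHCII low, IM2 was high for both, and IM3 was MHCII high and CD206 low. Each population had 3 libraries, named replicates A, B and C, and the labels do not say whether these came from separate mice or pools, so p-values measure only the spread between these libraries.

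Toll-like receptors are membrane proteins that bind conserved microbial molecules and start inflammatory transcription. Tlr1, Tlr2, Tlr4 and Tlr6 act mainly at the cell surface on lipoproteins and lipopolysaccharide, whereas Tlr3, Tlr7, Tlr8, Tlr9, Tlr12 and Tlr13 act in endosomes, most of them on nucleic acids. All but Tlr3 signal through the adaptor Myd88, and the endosomal receptors need the transport protein Unc93b1 to reach their compartment.

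The libraries held 11818981 to 15758326 reads assigned to genes, with 16050 to 18908 genes detected, and 3 counts corresponded to 0.190 to 0.254 CPM (counts scaled to library depth with TMM factors). The 8 alveolar markers, such as Siglecf and Pparg, summed to 52196 to 58894 CPM in AM and to 178 to 590 CPM in the 9 interstitial libraries. The 8 interstitial markers, such as Itgam and Cx3cr1, summed to 3078 to 3242 CPM in AM and to 14298 to 25103 CPM in the interstitial libraries. Nearly all of the AM sum was Cd68 and Mrc1, as the other markers averaged at most 9.72 CPM there. Cd68 averaged 2122, 1371, 993 and 1018 CPM in AM, IM1, IM2 and IM3, and Mrc1 1000, 2149, 2204 and 746. Against AM, 7 of the 8 were called higher and 1 lower for the interstitial mean, and 6 higher and 2 lower for IM3. IM1 replicate A stood apart from IM1 replicates B and C by transcript length: its median log2 ratio to them was 0.42 over the 3121 genes with the shortest exons and -0.29 over the 3120 with the longest. Between these, it was 0.0005 over genes of 2256 to 3707 bases and -0.22 over genes of 3708 to 5747 bases. The exon lengths of all 10 members, such as Tlr12 at 3177 bases, fell in these middle ranges. In IM1 replicate A, 9 of the 10 members were below the mean of replicates B and C, from -0.11 for Tlr7 to -1.68 for Tlr12 on the log2 scale, and Tlr9 was above it by 0.86. The part of this library's length pattern in the IM1 values was not tested. Calls of members that change without it are given, while means, sums, shares and ratios of IM1 include it.

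Upstream windows of 4 members are shown because their genes had the clearest differences between AM and IM in opposite directions. Each holds the 250 bases before the transcription start, 5′ to 3′ on the gene's own strand, from RefSeq on GRCm38.p6, and capitals mark matches to the motifs named after them. In GENCODE M21 the gene starts 159 bases further upstream for Tlr2 and 5 for Tlr1, so these windows lie partly within the gene. Tlr12 lies at chr4:128618620-128618869, Tlr1 at chr5:64933559-64933808, Tlr2 at chr3:83841609-83841858 and Tlr8 at chrX:167264330-167264579, all on the minus strand.
Tlr12 (0 counts in AM): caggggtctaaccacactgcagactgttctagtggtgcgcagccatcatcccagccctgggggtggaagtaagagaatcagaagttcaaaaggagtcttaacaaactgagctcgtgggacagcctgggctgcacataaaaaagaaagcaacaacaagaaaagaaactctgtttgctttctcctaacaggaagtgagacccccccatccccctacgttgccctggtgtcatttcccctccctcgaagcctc
Tlr1 (near 0 in AM): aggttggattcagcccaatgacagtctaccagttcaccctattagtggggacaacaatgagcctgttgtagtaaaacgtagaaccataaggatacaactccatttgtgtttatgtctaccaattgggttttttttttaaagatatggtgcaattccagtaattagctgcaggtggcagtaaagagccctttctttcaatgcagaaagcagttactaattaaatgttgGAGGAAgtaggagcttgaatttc
Tlr2 (higher in AM): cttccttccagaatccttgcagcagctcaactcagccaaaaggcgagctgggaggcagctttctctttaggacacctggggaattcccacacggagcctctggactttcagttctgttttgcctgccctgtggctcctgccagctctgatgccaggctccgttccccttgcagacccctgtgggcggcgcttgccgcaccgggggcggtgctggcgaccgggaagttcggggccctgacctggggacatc
Tlr8 (higher in AM): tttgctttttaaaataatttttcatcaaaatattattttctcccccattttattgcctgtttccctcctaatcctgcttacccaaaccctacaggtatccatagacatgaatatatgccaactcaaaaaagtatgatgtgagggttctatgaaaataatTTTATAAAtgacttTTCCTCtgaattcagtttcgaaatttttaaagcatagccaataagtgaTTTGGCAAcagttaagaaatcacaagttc

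The windows were searched on both strands for the PU.1 core GAGGAA, the AP-1 motif TGANTCA, the C/EBP motif TTGCNNAA and the TATA motif TATAAA. PU.1 is the ETS factor of macrophages, and its core was present upstream of Tlr1, Tlr8, Tlr9 and Tlr13, which is 4 of the 8 members that had a window, against 23.3% of 32851 mouse windows of this length. The C/EBP motif was upstream of Tlr3 and Tlr8 (9.56% of all windows), AP-1 upstream of Tlr9 (6.75%) and TATA upstream of Tlr6 and Tlr8 (12.4%). By the GENCODE start, 700 bases further upstream, the Tlr3 window lies wholly within the gene. Those of Tlr6 and Tlr13 lie partly within it, with starts 49 and 71 bases further upstream. In Tlr8, 2 overlapping TATA matches form the first run of capitals, followed by PU.1 and C/EBP, both on the opposite strand. CpG dinucleotides numbered 11 upstream of Tlr2, 4 upstream of Tlr12 and 1 each upstream of Tlr1 and Tlr8, against a median of 6 over all windows. Letters shared by AM-high and IM-high members, such as the PU.1 core of Tlr1 and Tlr8, describe the sequence only. The table held no window for Tlr4 and Tlr7.

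A further sequence matters for counting. The coding regions of Tlr1 and Tlr6, neighbours on chromosome 5, share an identical run of 229 bases, and 25.59% of all 30-base windows of the Tlr6 coding region occur in that of Tlr1. No other pair of members shared a run of more than 16 bases. The run is shown in capitals within Tlr1 (coding bases 1458 to 1706, chr5:64925527-64925775, minus strand, GENCODE M21 on GRCm38), and its copy in Tlr6 lies at chr5:64953828-64954056.
Tlr1 coding: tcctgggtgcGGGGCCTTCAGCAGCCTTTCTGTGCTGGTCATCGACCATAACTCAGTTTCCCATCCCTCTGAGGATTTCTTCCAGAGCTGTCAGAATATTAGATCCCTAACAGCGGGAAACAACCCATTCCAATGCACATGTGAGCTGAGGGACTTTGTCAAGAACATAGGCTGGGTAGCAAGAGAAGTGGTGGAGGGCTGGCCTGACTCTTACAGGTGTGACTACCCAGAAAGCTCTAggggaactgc
Reads that fall wholly inside it map to both genes and were not counted for either, so Tlr1 and Tlr6 are undercounted relative to the other members by an amount the tables do not give.

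Tlr2 was the most abundant member in all 4 populations, with its highest level in AM. Per kilobase of exon (RPKM), Tlr2 stood at 348 ± 19.3 in AM (mean ± SD over 3 libraries) and at 168 ± 32.7, 171 ± 11.5 and 194 ± 30.5 in IM1, IM2 and IM3, above 99.1% of tested genes in AM and above 97.9 to 98.5% in the interstitial populations. In AM, Tlr8, Tlr7, Tlr13 and Tlr4 followed at 50.4, 42.5, 35.9 and 21.8 RPKM, and Tlr6 (5.32), Tlr3 (2.26), Tlr1 (0.225), Tlr9 (0.0353) and Tlr12 (0) were low. In IM3 the order after Tlr2 was Tlr7 (43.8), Tlr13 (37.2), Tlr1 (37.1), Tlr8 (22.5), Tlr12 (19.1), Tlr4 (16.4), Tlr6 (9.62), Tlr3 (3.74) and Tlr9 (1.18). Neighbours in these orders whose libraries overlapped were Tlr7 and Tlr13, Tlr1 and Tlr9, and Tlr9 and Tlr12 in AM, and Tlr13 and Tlr1 as well as Tlr12 and Tlr4 in IM3.

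**Figure D1:**
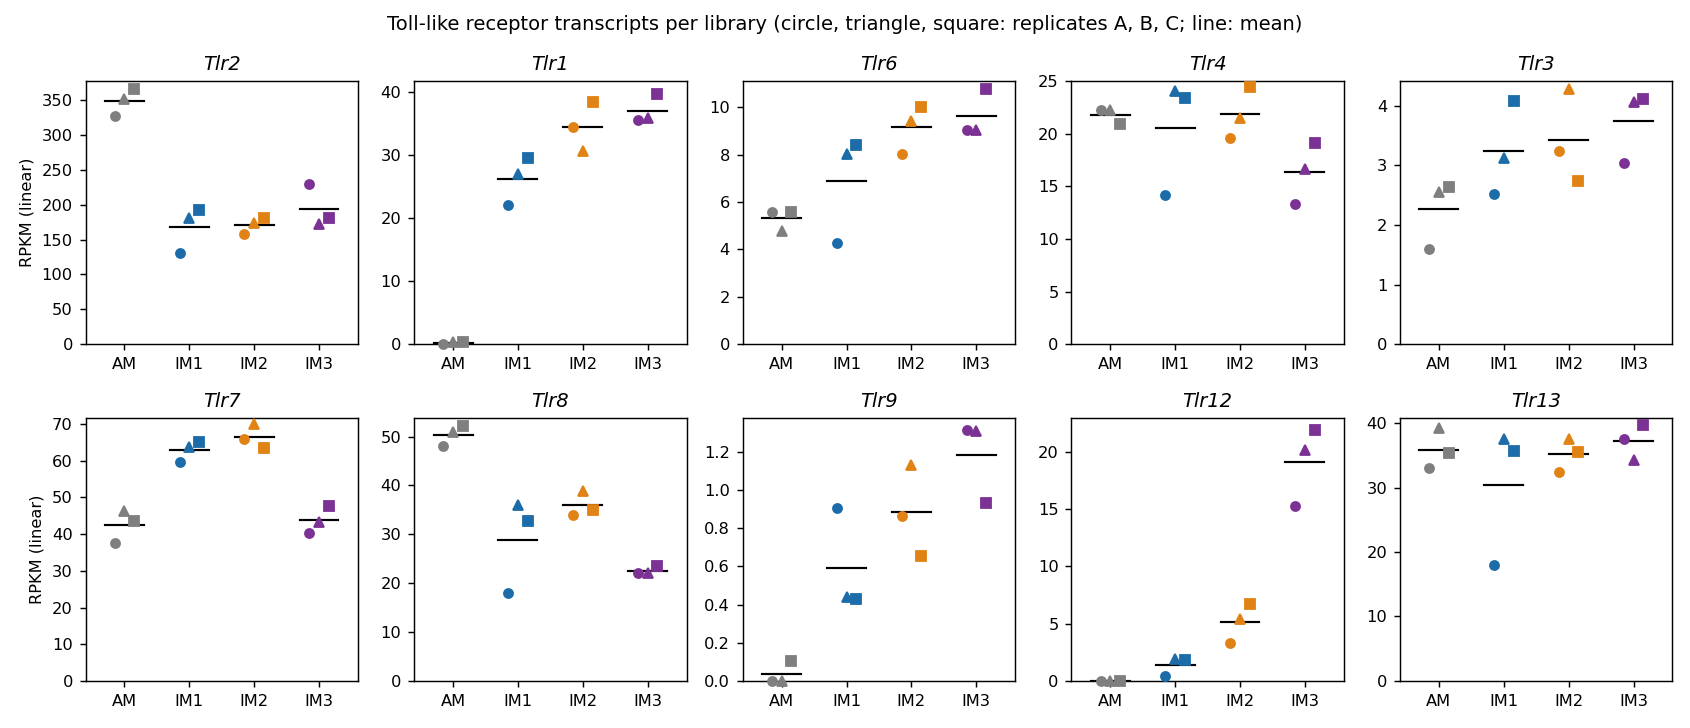
RPKM of each member (linear axis from 0, a separate scale per panel) in the 3 libraries of each population, with the mean as a line. Tlr1, Tlr9 and Tlr12 sit at or near 0 in AM, Tlr2 and Tlr8 are highest in AM, and IM1 replicate A (circle) lies below replicates B and C for 9 of the 10 members.

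The family's summed level was 506 ± 27.0 RPKM in AM, 349 ± 67.8 in IM1, 384 ± 20.4 in IM2 and 385 ± 23.7 in IM3. Tlr2 made up 68.7% ± 0.801 of that sum in AM and 48.1% ± 0.855, 44.6% ± 0.778 and 50.3% ± 5.28 in IM1, IM2 and IM3. Without Tlr2 the sum was 158 ± 9.12 RPKM in AM and 181 ± 35.4, 213 ± 9.29 and 191 ± 15.3 in IM1, IM2 and IM3. In IM1, replicate A was lowest in both sums, which ran from 271 to 393 RPKM with Tlr2 and from 140 to 202 without it. Surface receptors held 74.1% of the family's RPKM in AM and 61.7 to 66.8% in the interstitial means, and endosomal receptors the remainder. Tlr1 made up 0.0437% in AM and 7.58, 9.02 and 9.66% in IM1, IM2 and IM3, and Tlr7 8.38% in AM and 18.4, 17.4 and 11.4%.

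**Figure D2:**
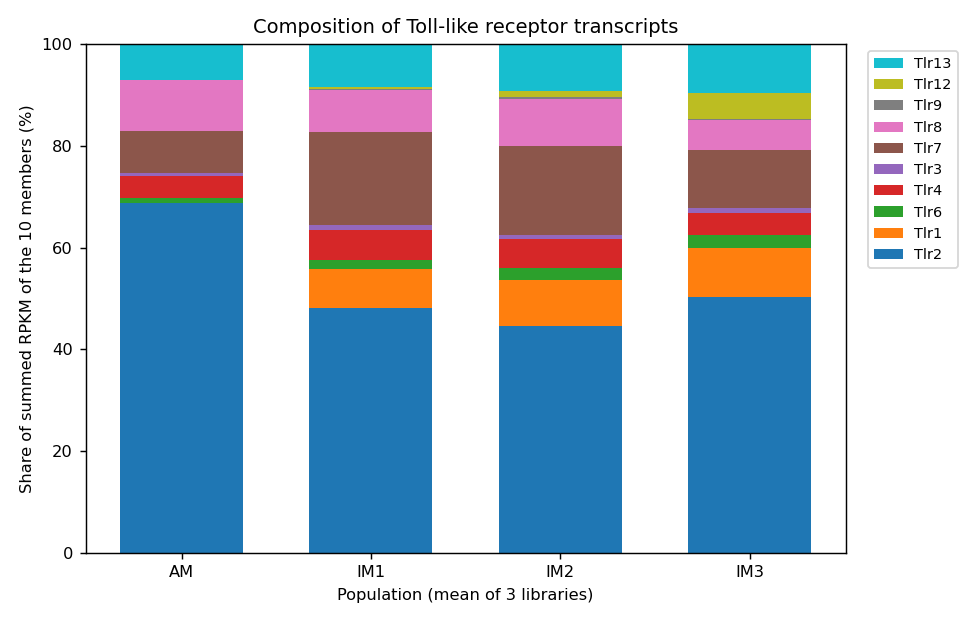
Mean share of each member in the summed RPKM of the 10 members, by population (stacked bars, percent, 3 libraries each). Tlr2 fills 68.7% of the AM bar and 44.6 to 50.3% of the interstitial bars, where Tlr1 appears at 7.58 to 9.66%.

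The sorted populations were compared with edgeR's quasi-likelihood test over 14095 genes, with Benjamini-Hochberg adjustment, and a call meant an adjusted p under 0.05. For the mean over IM1, IM2 and IM3 against AM, 8 of the 10 members were called, 6 higher and 2 lower, where 64.6% of all tested genes were called, 35.9% higher and 28.7% lower. Against AM, IM1 had 4 members higher and 2 lower (backgrounds 58.8% called, 33.1% higher, 25.7% lower), IM2 had 6 higher and 2 lower (60.5%, 34.3% and 26.2%) and IM3 had 5 higher and 2 lower (57.4%, 32.4% and 25.0%). The median log2 fold change of the 10 members for the interstitial mean against AM was 0.52, beside 0.10 over all tested genes, and Tlr12 lies above that median also at its lower bound. Tlr1, Tlr9 and Tlr12 passed the low-count filter through their interstitial libraries, so their calls are not counted as support. The count of 6 higher and the median of 0.52 include them, so neither is counted as support. Without them the middle value was that of Tlr13 (-0.07), beside 0.10 over all tested genes. Of the members left, Tlr3 (0.62), Tlr6 (0.67) and Tlr7 (0.42) were called higher for the interstitial mean. Tlr2 (-0.97) and Tlr8 (-0.81) were called lower, and Tlr4 (-0.16) and Tlr13 (-0.07) were not called. Of other cell types, the 5 fibroblast markers summed to 0 to 0.350 CPM in AM and 33.0 to 111 in the interstitial libraries. The 5 endothelial markers summed to 0 to 0.0736 and 27.9 to 56.0 CPM. Genes of both lists were at or near 0 in AM, so they could be called only as higher. The 5 epithelial markers summed to 155 to 177 CPM in AM and 7.24 to 51.7 in the interstitial libraries, with 3 called higher and 2 lower. The part of these 3 cell types in the members' contrasts with AM was not tested. The 4 comparisons share the AM libraries, and in sorted bulk RNA fewer cells with a transcript and less transcript per cell cannot be told apart.

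Tlr2, the shared partner that pairs with Tlr1 or Tlr6 to bind lipoproteins, was lower in the interstitial populations. It measured 986, 1059 and 1101 CPM in AM replicates A, B and C, 394, 543 and 579.8 in IM1, 478, 525 and 545 in IM2 and 691, 520.4 and 545 in IM3. All 9 interstitial libraries were below all 3 AM libraries. The log2 fold change of the interstitial mean over AM was -0.97 ± 0.12 (SE, adjusted p = 2.49e-06), and it was -1.05, -1.02 and -0.84 for IM1, IM2 and IM3.

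Tlr1, which joins Tlr2 to recognise triacylated lipoproteins, was almost absent from AM. Its counts there were 3, 11 and 11, or 0.210, 0.772 and 0.810 CPM, and it reached 58.5, 71.6 and 78.6 CPM in IM1, 91.5, 81.3 and 102 in IM2 and 94.3, 95.3 and 106 in IM3. Every interstitial library was above every AM library. The ratio of interstitial to AM level was 147 with a 95% counting interval of 99.4 to 227, and the fitted log2 fold change was 7.15 ± 0.25 (adjusted p = 1.07e-12). Tlr1 lies at chr5:64924679-64933563 on the minus strand.

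Tlr6, the partner of Tlr2 for diacylated lipoproteins, lies beside Tlr1 (chr5:64952031-64960097, minus strand) and was present in AM. It measured 14.6, 12.5 and 14.5 CPM in AM, 11.1, 21.0 and 21.9 in IM1, 20.9, 24.5 and 26.1 in IM2 and 23.5, 23.5 and 28.1 in IM3. All IM2 and IM3 libraries were above AM, and IM1 replicate A was below it. The log2 fold change was 0.67 ± 0.18 for the interstitial mean (adjusted p = 0.00405), 0.78 ± 0.21 for IM2 (0.00494) and 0.85 ± 0.21 for IM3 (0.00292). For IM1 it was 0.38 ± 0.21 (0.14), and without IM1 replicate A it was 0.63 with an adjusted p of 0.00251. Within libraries, the RPKM ratio of Tlr1 to Tlr6 was 0.0432 ± 0.0253 in AM and 4.02 ± 1.01, 3.79 ± 0.521 and 3.87 ± 0.155 in IM1, IM2 and IM3, so AM held far more Tlr6 than Tlr1 transcript and the interstitial populations the reverse.

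Tlr4, the lipopolysaccharide receptor, had similar means in AM, IM1 and IM2 and a lower mean in IM3 that was not called. It measured 124, 124 and 116 CPM in AM, 78.8, 134 and 129.9 in IM1, 109, 119 and 136 in IM2 and 74.3, 92.3 and 107 in IM3. The IM1 and IM2 libraries overlapped AM, and the 3 IM3 libraries lay below it. No contrast of Tlr4 with AM was called: the log2 fold change was -0.16 ± 0.15 for the interstitial mean (95% interval -0.45 to 0.12, adjusted p = 0.344) and -0.41 ± 0.18 for IM3 (adjusted p = 0.0659). The IM3 contrast passed the threshold with the replicate letter as a block (-0.44, adjusted p = 0.0205), without the low-count filter (-0.41, 0.028) and with AM and IM3 fitted alone (-0.39, 0.00742). It also passed without IM1 replicate A (-0.41, 0.00826), IM1 replicate B (-0.41, 0.0497) or IM3 replicate C (-0.54, 0.0381).

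**Figure D3:**
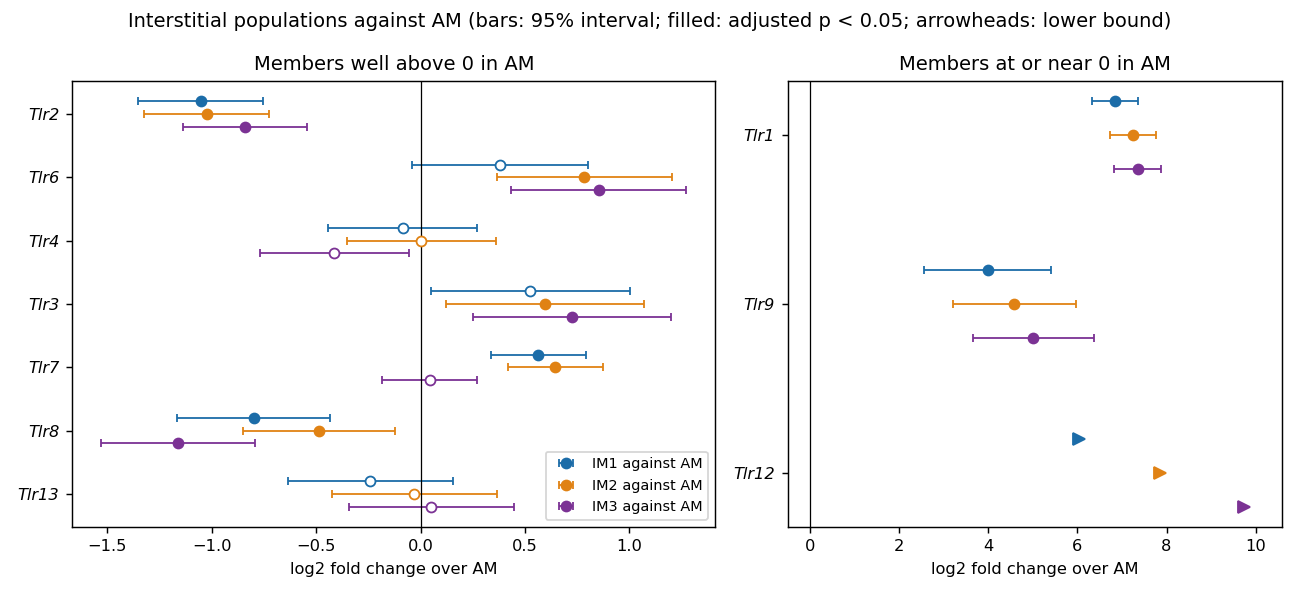
Fitted log2 fold changes of each interstitial population over AM with normal 95% intervals (filled points called at adjusted p under 0.05). Members well above 0 in AM are on the left, and on the right Tlr1 and Tlr9 are fitted values while the Tlr12 arrowheads are lower bounds of 65.6-, 233- and 848-fold, drawn as log2.

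Among the endosomal receptors, Tlr12 went from none in AM to a graded level across the interstitial populations. Tlr12 works with Tlr11 on profilin of apicomplexan parasites. AM had 0 counts in all 3 libraries, whereas IM1 had 1.49, 5.97 and 5.77 CPM, IM2 10.5, 17.1 and 21.2 and IM3 48.5, 63.9 and 69.4. No 2 populations overlapped. Measured against 3 counts over the AM group, Tlr12 was at least 65.6-fold higher in IM1, at least 233-fold higher in IM2 and at least 848-fold higher in IM3. Tlr12 is a single-exon gene at chr4:128615443-128618619 on the minus strand.

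Tlr9, the receptor for unmethylated CpG DNA, was scarce everywhere and nearly absent from AM. AM replicates A, B and C held 0, 0 and 5 counts, IM1 36, 23 and 23, IM2 40, 56 and 36 and IM3 69, 62 and 48. All interstitial libraries were above AM. The ratio of interstitial to AM level was 25.7, with a counting interval of 10.9 to 79.5 (fitted log2 fold change 4.53 ± 0.65, adjusted p = 1.62e-05). All AM reads came from replicate C: without it AM was at 0 and the fitted value rose to 8.40, which is no bound, and without replicate A or B it was 3.96. At 0.591 to 1.18 RPKM in the interstitial means, Tlr9 stayed below the median tested gene.

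Tlr7 and Tlr8, X-linked neighbours of the group that senses single-stranded RNA, differed from AM in opposite directions. Tlr7 measured 154, 189 and 178 CPM in AM, 244, 259.9 and 265 in IM1, 269, 286 and 259 in IM2 and 165, 177 and 194 in IM3. IM1 and IM2 were above AM in all 6 libraries, and IM3 overlapped AM. The log2 fold change was 0.56 ± 0.12 in IM1 (adjusted p = 0.000619), 0.65 ± 0.12 in IM2 (0.000181) and 0.04 ± 0.12 in IM3 (0.768, 95% interval -0.18 to 0.27). Tlr8 measured 172, 182 and 187 CPM in AM, 64.8, 129 and 117 in IM1, 122, 139.6 and 125 in IM2 and 79.0, 79.4 and 84.1 in IM3, with every interstitial library below AM. Its log2 fold change was -0.80 ± 0.19 in IM1 (adjusted p = 0.00169), -0.49 ± 0.19 in IM2 (0.0334) and -1.16 ± 0.19 in IM3 (7.22e-05). The IM2 call was lost without AM replicate A, B or C or without IM2 replicate A or C, with adjusted p from 0.0507 to 0.0987. The RPKM ratio of Tlr7 to Tlr8 was 0.843 ± 0.0623 in AM and 2.35 ± 0.831, 1.85 ± 0.0752 and 1.94 ± 0.0997 in IM1, IM2 and IM3. Within IM1 this ratio ran from 1.77 to 3.30, and replicate A was the highest.

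Tlr13, a receptor for bacterial ribosomal RNA, is also X-linked and showed no difference past the threshold. It measured 135, 161 and 144 CPM in AM, 73.4, 153 and 146 in IM1, 132, 154 and 145 in IM2 and 153, 140.4 and 162 in IM3. Apart from IM1 replicate A, all libraries lay between 132 and 162 CPM. The interstitial mean differed from AM by -0.07 ± 0.16 (95% interval -0.39 to 0.25, adjusted p = 0.717). The X-linked transcript Xist was at 40.4 to 68.9 CPM in AM and 103 to 195 in the interstitial libraries, and the 4 Y-linked genes examined did not exceed 0.135 CPM in any library.

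Tlr3, the receptor for double-stranded RNA, was low and somewhat higher in the interstitial populations. It measured 7.01, 11.2 and 11.6 CPM in AM, 11.1, 13.7 and 17.9 in IM1, 14.2, 18.8 and 12.05 in IM2 and 13.4, 17.8 and 18.1 in IM3. IM1 overlapped AM, while IM2 and IM3 were above it. The log2 fold change was 0.62 ± 0.20 for the interstitial mean (adjusted p = 0.0152), 0.53 ± 0.24 for IM1 (0.0754), 0.60 ± 0.24 for IM2 (0.044) and 0.72 ± 0.24 for IM3 (0.018). Without AM replicate A, its lowest library, the calls were lost for the interstitial mean (0.41, adjusted p = 0.122), IM2 (0.39, 0.202) and IM3 (0.52, 0.0966). The IM2 call was also lost without AM replicate B, IM2 replicate A or B, or IM3 replicate B or C (adjusted p from 0.0514 to 0.206), and the IM3 call without IM3 replicate B (0.0587) or C (0.0633). Without IM1 replicate A, IM1 was called as well (0.67, 0.0215). Exons of Tlr3 overlap those of an antisense gene, whose reads unstranded counting cannot separate.

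Among the interstitial populations, Tlr12 and Tlr7 were called between IM3 and each of the others, while Tlr8 was called between IM2 and IM3 only and Tlr1 between IM1 and IM3 only. IM1 against IM2 had 1 member called, Tlr12, lower in IM1, and no member higher (backgrounds 1.71% called, 0.49% higher, 1.22% lower). Same-lettered libraries of IM1 and IM2 deviated together, and with the replicate letter as a block 392 genes were called in place of 241, with Tlr12 again the member (-1.91, adjusted p = 0.00116). IM1 against IM3 had 3 called, Tlr7 higher and Tlr1 and Tlr12 lower (24.4%, 12.7% and 11.7%). IM2 against IM3 had 3 called, Tlr7 and Tlr8 higher and Tlr12 lower (11.4%, 6.49% and 4.94%). The median log2 differences of the 10 members were -0.26, -0.25 and -0.09, beside 0.00, 0.02 and 0.00 over all tested genes.

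**Figure D4:**
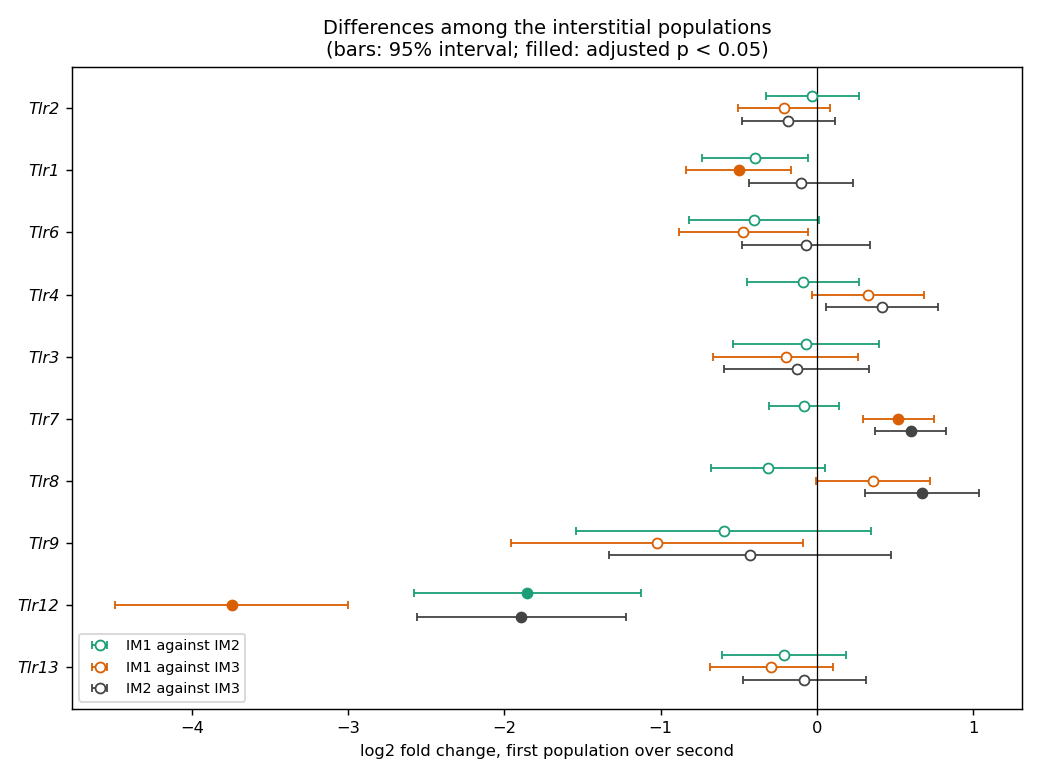
Fitted log2 differences between interstitial populations with normal 95% intervals, filled where called at adjusted p under 0.05. Tlr12 is displaced to lower values in all 3 comparisons, Tlr7 is higher in IM1 and IM2 than in IM3, and Tlr2, Tlr3, Tlr4, Tlr6, Tlr9 and Tlr13 have no call.

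Tlr12 was 3.61-fold higher in IM2 than in IM1 (log2 difference of IM1 and IM2 -1.85 ± 0.37, adjusted p = 0.0229), 3.71-fold higher in IM3 than in IM2 (-1.89 ± 0.34, 0.00197) and 13.4-fold higher in IM3 than in IM1 (-3.75 ± 0.38, 7.78e-06). Without IM1 replicate A, the log2 difference was -1.47 for IM1 and IM2 and -3.37 for IM1 and IM3. The step from IM1 to IM2 was not called without IM1 replicate C (adjusted p = 0.0507), IM2 replicate B (0.0856) or IM2 replicate C (0.11), or with the pair fitted alone (0.127). The B cell list summed to 0.0736 to 1.54 CPM in AM and 32.5 to 68.4 CPM in the interstitial libraries, nearly all of it Cd79b, while Pax5 was at 0 in all 12 libraries. The plasmacytoid dendritic cell list summed to 8.98 to 10.9 CPM in AM, and its ranges in IM1, IM2 and IM3 were 543 to 729, 490.1 to 585 and 178 to 192, almost all from Siglech and Tcf4, with Klk1 at 0 throughout. For conventional dendritic cells the sums were 3.57 to 5.74 CPM in AM, against 91.3 to 120 (IM1), 109 to 124 (IM2) and 27.2 to 48.1 (IM3). Both dendritic cell lists had their lowest interstitial sums in IM3, where Tlr12 and Tlr9 had their highest means. Of the second list, Zbtb46 averaged 41.2, 40.9 and 11.5 CPM in IM1, IM2 and IM3, and Cd209a 63.9, 68.0 and 4.75. Flt3 of that list averaged 2.77, 6.22 and 17.7 CPM, and Xcr1, Clec9a and Ccr7 at most 2.34. Monocyte markers, mostly F13a1 and Ccr2, had sums of 12.5 to 16.7 CPM in AM, against 2233 to 3308 (IM1), 2492 to 3142 (IM2) and 1132 to 1361 (IM3). Within this list F13a1 averaged 0.165, 2627, 2252 and 85.9 CPM in AM, IM1, IM2 and IM3, and Ccr2 13.8, 71.0, 489 and 1155 CPM. Ccr2 followed the order of Tlr12 and F13a1 did not, while Ly6c2, Vcan and Plac8 averaged at most 1.92 CPM. The part of such cells in the levels of Tlr7, Tlr9 and Tlr12 was not tested.

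Tlr7 was 1.43-fold higher in IM1 than in IM3 (0.52 ± 0.12, adjusted p = 0.00395) and 1.52-fold higher in IM2 than in IM3 (0.60 ± 0.12, 0.00224), with no overlap of libraries in either pair. Tlr8 was 1.6-fold higher in IM2 than in IM3 (0.67 ± 0.19, adjusted p = 0.0269), again without overlap. That call was lost in each of the 6 fits that left out a library of IM2 or IM3, with adjusted p from 0.0514 to 0.098. Tlr1 was 1.41-fold higher in IM3 than in IM1 (-0.50 ± 0.17, adjusted p = 0.0454), and this call was lost in 9 of the 12 fits that left out a library, with adjusted p up to 0.154. It was also lost with RLE scaling (adjusted p = 0.0501), with upper-quartile scaling (0.0576) and with the pair fitted alone (0.0577). Without IM1 replicate A, Tlr4 (0.53, adjusted p = 0.00938) and Tlr8 (0.61, 0.000476) were called higher and Tlr9 (-1.44, 0.0452) lower in IM1 than in IM3, which made 5 members called. Tlr4 was then also called higher in IM2 than in IM3 (0.41, adjusted p = 0.0308), as it was with that pair fitted alone (0.43, 0.039).

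Tlr5, the flagellin receptor, and Tlr11, the partner of Tlr12, are the family's other mouse members in the table. Tlr5 measured 24.5, 25.2 and 20.0 CPM in AM, 44.3, 56.9 and 46.1 in IM1, 67.8, 58.9 and 54.4 in IM2 and 17.3, 11.0 and 14.8 in IM3. IM1 and IM2 were above AM, and IM3 was below it. The log2 fold change over AM was 1.08 ± 0.17 in IM1, 1.38 ± 0.17 in IM2 and -0.69 ± 0.18 in IM3 (adjusted p = 6.51e-05, 5.19e-06 and 0.00359). Between IM2 and IM3 the difference was 2.07 ± 0.18 (adjusted p = 1.31e-06), the reverse of the order of Tlr12. Tlr11 had 4 counts over the 3 AM libraries and 78, 147 and 75 counts in IM1, IM2 and IM3, a ratio of the interstitial level to AM of 24.5 (counting interval 9.47 to 90.5). The RPKM ratio of Tlr12 to Tlr11 was 2.39 ± 1.26 in IM1, 5.27 ± 2.37 in IM2 and 38.2 ± 14.3 in IM3.

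Genes with the pattern most like each member over the 4 population means were found by the root-mean-square difference of centred log2 CPM. The scale was log2(CPM + 0.5), and distances are not given for Tlr1, Tlr9 and Tlr12, whose AM values lie at or near 0 and depend on the added 0.5. Tlr2 was nearest to Dhdds (0.01) and to M6pr, a receptor that carries lysosomal enzymes (0.02), which measured 734, 366, 370.3 and 412 CPM in AM, IM1, IM2 and IM3. Tlr6 was nearest to Setd2, a histone methyltransferase (0.02), with 47.1, 59.5, 79.8 and 86.0 CPM. For Tlr2, 1612 genes lay within 0.25, and for Tlr13, 3917, since a nearly flat pattern is common. The closest pair of members was Tlr3 and Tlr6 (0.14).

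Genes that act with the receptors were followed in lists chosen by role, for the interstitial mean against AM, where 35.9% of tested genes were higher and 28.7% lower. Of 9 surface co-receptors and ligand carriers, 6 were higher, 1 was lower and 2 were not called (median log2 fold change 1.16, beside 0.10 over all genes). Lbp here, Sarm1 among the adaptors, Il1rl1 among the negative regulators and Il6, Il10 and Ptgs2 among the targets had under 10 counts in every AM library, so they passed the low-count filter through the interstitial side and could be called only as higher. Without them, 5 of 8, 1 of 5 and 5 of 13 genes of the first 3 of these lists were called higher, and the medians were 1.025, -0.34 and 0.13. Cd14, which hands lipopolysaccharide to Tlr4, was 250 ± 36.0 CPM in AM and 4351 ± 1083 over the 9 interstitial libraries (4.12 ± 0.24, adjusted p = 4.21e-10). Ly86, the partner of Cd180, was higher by 3.84 ± 0.19 (4.58e-11), and Lbp was at 0 in AM and 0.877 to 2.49 CPM in the interstitial means. Itgb2, the integrin chain that pairs with CD11b, was lower (-2.55 ± 0.08, 2.7e-13). Ly96, the subunit of Tlr4 that binds lipopolysaccharide, was 8.10 ± 1.43 CPM in AM and 45.2 ± 17.0, 30.1 ± 10.9 and 14.6 ± 2.46 in IM1, IM2 and IM3, and IM1 exceeded IM3 by 1.63 ± 0.28 (adjusted p = 0.00044). The means of Tlr4 itself were near AM in IM1 and IM2 (log2 fold changes -0.08 and 0.00), where transcripts of its co-receptors Cd14 and Ly96 were higher. In IM3 all 3 libraries of Tlr4 lay below AM (-0.41, not called).

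Of 14 genes of receptor folding, transport and processing, 8 were higher, 5 were lower and 1 was not called (median 0.54). Unc93b1, which carries endosomal receptors, was 881 ± 34.5 CPM in AM and 2610 ± 272 in the interstitial libraries (1.57 ± 0.11, adjusted p = 5.01e-09). Lgmn, a protease that trims endosomal receptors, was higher by 2.39 ± 0.13 (1.26e-10) and Rnaset2a, a lysosomal ribonuclease, by 1.28 ± 0.21 (7.47e-05). Pld3, an exonuclease that degrades Tlr9 ligands, was lower (-2.67 ± 0.09, 3.23e-13), as were the protease Ctsl (-0.73 ± 0.14, 0.000216) and Hsp90b1, the chaperone that folds the receptors (-0.70 ± 0.09, 4.73e-06). Ctsl was 494 ± 69.7 CPM in AM and graded from IM1 to IM3, at 521 ± 126, 310.2 ± 47.5 and 164 ± 15.7 CPM. Its mean in IM1 was therefore not below AM. All 3 interstitial pairs were called (adjusted p = 0.0397, 4.89e-06 and 0.00203 for IM1 and IM2, IM1 and IM3, and IM2 and IM3).

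Of 6 TIR adaptors, 2 were higher, 3 were lower and 1 was not called (median -0.19). Myd88, the adaptor of all members but Tlr3, was 230.3 ± 16.1 CPM in AM and 108 ± 13.1 in the interstitial libraries (-1.10 ± 0.11, adjusted p = 1.68e-07). Pik3ap1 (-1.79 ± 0.17, 1.87e-07) and Tirap, the bridge from Tlr2 and Tlr4 to Myd88 (-0.34 ± 0.10, 0.00703), were lower too. Ticam1, the adaptor of Tlr3, was higher in the interstitial mean (0.55 ± 0.18, 0.012). It measured 9.22 ± 1.36 CPM in AM, 9.43 ± 1.98 in IM1 and 19.5 ± 0.632 in IM3 (adjusted p = 0.00155 for IM1 and IM3). Its mean in IM1 was thus near that of AM. Of 17 kinases and ubiquitin ligases, 3 were higher, among them Tab2 (1.62 ± 0.18), 5 were lower, among them Ikbke (-2.07 ± 0.19), and 9 were not called (median -0.12).

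Of 9 transcription factors, 7 were higher and 2 were not called (median 0.71). Irf5, which acts downstream of Myd88, was 217 ± 11.2 CPM in AM and 529 ± 28.6, 621 ± 17.1 and 969.7 ± 36.8 in IM1, IM2 and IM3 (1.65 ± 0.10 for the interstitial mean, adjusted p = 3.57e-10). Of 14 negative regulators, 6 were higher, 3 were lower and 5 were not called (median 0.26). Tnip3, an inhibitor of NF-kB signalling, was 1.31 ± 0.567 CPM in AM, 3.19 ± 0.316 in IM1, 10.3 ± 2.26 in IM2 and 28.7 ± 1.31 in IM3, the order of Tlr12, with all 3 interstitial pairs called (adjusted p = 0.00191, 2.01e-07 and 0.00029).

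Of 13 cytokine and chemokine targets, 10 were tested. Leaving out Il6, Il10 and Ptgs2, the other 7 were all called higher in the interstitial mean (median 3.02), while Il12b, Ifnb1 and Nos2 did not pass the low-count filter. By population, with Il6, Il10 and Ptgs2 included, 8 of the 10 were called higher than AM in IM1, 9 in IM2 and 10 in IM3. Il10 was at 0 in AM and 20.2 ± 5.54, 22.2 ± 5.88 and 3.03 ± 1.84 CPM in IM1, IM2 and IM3, and Cxcl2 was 6.84 ± 1.84 CPM in AM and 270 ± 138 in the interstitial libraries (5.18 ± 0.28, adjusted p = 1.23e-10). Il1b was 24.9 ± 9.95, 59.3 ± 23.1 and 392 ± 66.6 CPM in IM1, IM2 and IM3, and 22.0 ± 3.65 in AM, so its mean in IM1 was near that of AM. Beside these targets, 13 immediate early and dissociation genes, such as Fos and Egr1, summed to 629 to 714 CPM in AM and to 11308 to 14327 (IM1), 11565 to 14440 (IM2) and 12541 to 19036 (IM3), with 12 of 13 called higher. Their part in the levels of the targets was not tested.

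**Figure D5:**
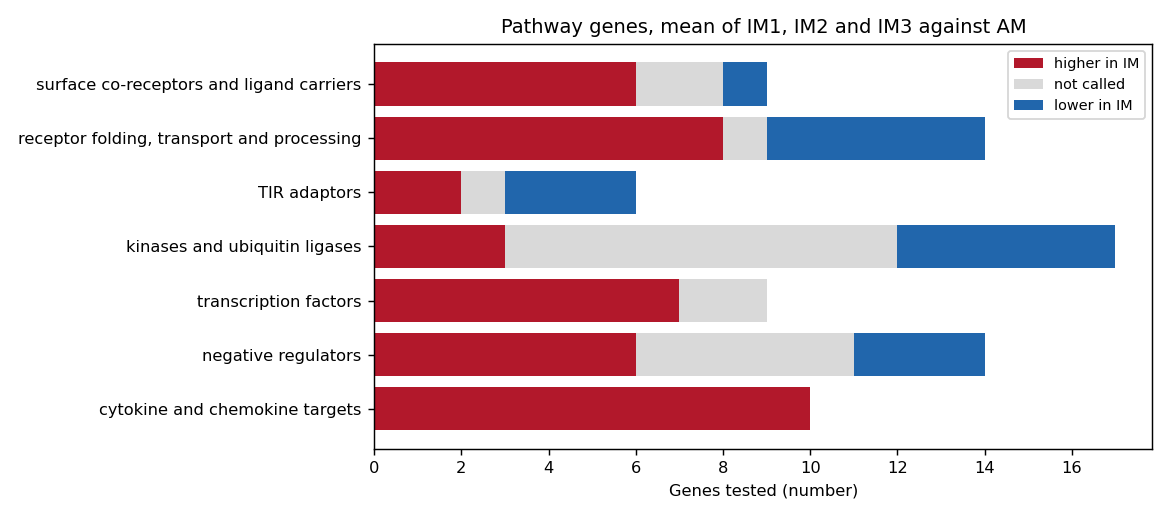
Number of tested genes per pathway list that were higher, lower or not called in the mean of IM1, IM2 and IM3 against AM (edgeR, adjusted p under 0.05). The 10 tested cytokine and chemokine targets were higher, 3 of them (Il6, Il10 and Ptgs2) after passing the filter through the interstitial libraries, whereas 9 of 17 kinases and ubiquitin ligases were not called.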

How the data were processed

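Per the file headers, the authors counted reads per gene with featureCounts v1.5.0-p1, without strand, on Ensembl 78 gene models of mm10, and reads with several locations were left unassigned. Per the submitters' processing notes, STAR 2.5.1b, Subread 1.5.0-p1, DESeq2 1.8.1 and R 3.2.0 were used. RNA of about 50000 cells (integrity 9.2 to 10.0) was amplified with SMART-Seq v4 from 2 ng and sequenced on Ion Proton, per the labels. The deposited values are raw counts per library, and 38 deposited runs form 12 libraries. Of 43346 identifiers, 42462 (98.0%) matched a symbol in GENCODE M21.

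Counts were tested with edgeR 4.0.16 (R 4.3.3): TMM scaling, filterByExpr with a minimum count of 10, and 1 quasi-likelihood fit over all 12 libraries with population as the only term, tested on simulated data. A fold is the log2 fold change with its SE, and RPKM is CPM per kilobase of the deposited exon length. Counting intervals (95%, exact binomial) and floors of 3 counts cover counting error only. Alternatives were RLE and upper-quartile scaling, DESeq2 1.42.0, no count filter, only the populations compared, the replicate letter as a block, and leaving out each library.

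The members and gene lists were chosen with earlier results of these data known. All 10 members, Tlr5 and Tlr11 are named, and from each list up to 3 called genes per direction with the largest change against AM and 1 per direction in each interstitial pair. Genes most like a member are the 2 nearest tested genes that are not Toll-like receptors. Upstream windows were also searched for the NF-kB, interferon-response and ETS-IRF composite motifs, whose matches had been seen and are not reported here. The level of a further marker gene is not reported here. The replicate letters were checked for pairing by the correlation of same-lettered libraries' deviations from their population means: all 3 pairs were over 0.1 for IM1 and IM2 (0.205 to 0.346) and for IM2 and IM3 (0.141 to 0.233), but not for IM1 and IM3 (-0.158 to 0.211) or for AM with any population (-0.094 to 0.066). The pairing comes from the data, as the labels state no shared source.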

Additional observations from a re-analysis of the deposited data

Results flagged for a closer look

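The contrast with AM differed between interstitial populations, by a direct edgeR test of the difference, for 4 members. For Tlr12 the log2 difference was -1.85 for IM1 minus IM2, -3.75 for IM1 minus IM3 and -1.89 for IM2 minus IM3. For Tlr7 it was 0.52 for IM1 minus IM3 and 0.60 for IM2 minus IM3. For Tlr8 it was 0.67 for IM2 minus IM3, and for Tlr1 -0.50 for IM1 minus IM3. As given above, the calls of Tlr8, of Tlr1 and of Tlr12 for IM1 minus IM2 were lost in some of the other fits.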

How the results depend on the processing

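With 3 libraries per population, small contrasts rest on single libraries, and members with 0 to 5 counts in AM have only bounds or wide counting intervals. Leaving out each library in turn kept direction and call for 778 member contrasts, ended a call in 33, added one in 9 and turned the sign in 20, with no call before or after in these 20; the other settings kept 398, ended 4, added 6 and turned 2. The 2 were Tlr4 for IM2 against AM, -0.0131 with the replicate block, and Tlr2 for IM1 against IM2, 0.0079 with upper-quartile scaling. Leaving out libraries gave Tlr13 against AM ranges of -0.134 to 0.0146 (interstitial mean), -0.418 to 0.0246 (IM1), -0.0911 to 0.0377 (IM2) and -0.0083 to 0.117 (IM3). For Tlr4 they were -0.211 to 0.12 (IM1 against AM) and -0.0823 to 0.0868 (IM2 against AM), and for Tlr7 in IM3 against AM -0.04 to 0.104. For IM1 against IM2 they were -0.144 to 0.123 (Tlr2), -0.276 to 0.121 (Tlr3), -0.22 to 0.119 (Tlr4) and -0.396 to 0.0561 (Tlr13), and for IM2 against IM3 -0.322 to 0.0125 (Tlr3) and -0.136 to 0.0304 (Tlr6).

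Over all genes, IM1 against IM2 had 241 calls, 565 with DESeq2, 941 without the count filter, 71 with the pair fitted alone, 392 with the replicate block and 110 (without IM2 replicate B) to 1904 (without IM1 replicate B) when a library was left out. The 1 member called there became 0 to 1, and 0 with the pair alone. For IM1 against IM3, 3445 calls became 2268 with the pair alone, and the 3 members called became 2 to 5. The cause of these shifts was not tested. With the replicate block, 8 members were called for the interstitial mean against AM, 7, 8 and 8 for IM1, IM2 and IM3 against AM, and 1, 3 and 3 between IM1 and IM2, IM1 and IM3, and IM2 and IM3. Beside the added calls of Tlr3 for IM1 against AM (0.53, adjusted p = 0.0358) and Tlr4 for IM3 against AM, the block changed no member's call.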
